A study of Mus musculus with 6 samples.

Results

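The 40 genes described here drive the cell through division. They were chosen by gene symbol from a list of established cell cycle genes, and all 40 were found among the 16964 genes that carry counts in every tissue of this mouse RNA-seq series, out of 20672 genes counted in any tissue. Of these, 17 act in the approach to DNA synthesis and in S phase, and 23 act in mitosis. The series holds 6 libraries, 2 for each of 3 tissues of female mice, which are the infrapatellar fat pad (the adipose cushion under the kneecap), the rectus femoris (a muscle of the thigh) and the Achilles tendon. It was made to study letrozole, an inhibitor of aromatase, and Letrozol appears as a word in both fat pad titles and in no other. No label marks a treated and an untreated library within a tissue, so letrozole was not compared with a control, and if the titles mark a treatment, drug and tissue cannot be told apart in any contrast with the fat pad. The sources used here give no age, strain or genotype, and they leave unsaid whether paired libraries are from different animals. The p-values therefore reflect only how far these libraries spread, which may be technical. The labels for source and tissue read fat pad in all 6, and the tissue of each was taken from the treatment label, which names all 3 tissues.

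A cell enters S phase when cyclin E and its kinase release E2F factors from pocket proteins, and E2F factors then switch on the genes that load the MCM helicase onto DNA, fire replication origins and make nucleotides. Mitotic genes follow later, when B-MYB and FOXM1 join the MuvB complex at their promoters. Many of their protein products are destroyed as the cell leaves mitosis. Adult muscle fibres and fat cells have left the cell cycle, tendon cells divide rarely, and marrow and blood-forming cells divide often.

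The promoters of the members hold letters commonly linked to these 2 waves. Promoters were read from RefSeq (GRCm38.p6, the build before that of the counts), taking the 250 bases before the first listed start of each gene, and 14 S phase and 18 mitotic members had an entry. Ccne2, Gmnn, Mcm4, Foxm1, Ccna2, Aurkb, Kif20a and Tpx2 had none. Both strands were searched for the cell cycle homology region (CHR, TTTGAA), the E2F site (spelled TTCCCGC, with TTCGCGC as an alternative, TTGCCGC as another and TTGGCGC as the last) and the CCAAT box (CCAAT), and overlapping matches of 1 motif were counted once. The CHR stood in 7 of the 18 mitotic and 2 of the 14 S phase promoters, against 16.3% of all 27025 promoters. The E2F letters stood in 6 of the 14 S phase and 3 of the 18 mitotic promoters, against 7.97% of all promoters. CCAAT stood in 16 of the 18 mitotic and 9 of the 14 S phase promoters, against 34.5% of all. All 7 mitotic promoters with a CHR also held CCAAT, and so did the 2 S phase promoters with a CHR. This pair was found in 5.73% of all promoters. These matches describe the letters and do not show that a factor binds. The promoters of 4 members are printed to show both kinds, each as the 180 bases before the start, with CHR, E2F and CCAAT matches of either strand in capitals. Cdk1 and Cdc20 are mitotic members with both CHR and CCAAT, and Mcm6 and Mcm5 are S phase members with paired E2F letters and CCAAT and no CHR in the stretch shown. Cdk1 also holds a pair of E2F matches, so the letters do not part the sets cleanly. They lie at chr10:69352913-69353092 (minus strand), chr4:118437344-118437523 (minus strand), chr1:128359706-128359885 (minus strand) and chr8:75109329-75109508 (plus strand).
Cdk1: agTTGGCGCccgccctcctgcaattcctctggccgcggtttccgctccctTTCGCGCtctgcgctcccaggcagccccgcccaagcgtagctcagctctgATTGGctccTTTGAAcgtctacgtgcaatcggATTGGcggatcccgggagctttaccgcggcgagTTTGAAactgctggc
Cdc20: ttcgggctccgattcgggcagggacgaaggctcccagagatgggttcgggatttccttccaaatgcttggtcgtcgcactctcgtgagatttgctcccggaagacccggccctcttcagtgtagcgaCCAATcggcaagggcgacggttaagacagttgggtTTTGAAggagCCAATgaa
Mcm6: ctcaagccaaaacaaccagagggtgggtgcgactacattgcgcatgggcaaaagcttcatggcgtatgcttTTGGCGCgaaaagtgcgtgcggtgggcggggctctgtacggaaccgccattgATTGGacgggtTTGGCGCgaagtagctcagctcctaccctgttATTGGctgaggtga
Mcm5: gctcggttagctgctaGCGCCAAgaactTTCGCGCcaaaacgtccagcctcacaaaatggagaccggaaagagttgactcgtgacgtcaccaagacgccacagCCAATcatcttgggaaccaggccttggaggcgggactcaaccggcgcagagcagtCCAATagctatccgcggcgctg

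Depth ranged from 56216295 to 106319037 counts per library, and 0 counts allowed a level of up to 0.0267 to 0.0735 CPM (counts scaled to a common library size, with sizes adjusted by the trimmed mean of M-values, TMM), taking 3 counts as the limit. These limits, like all intervals given later, reflect counting error alone. The libraries of each pair differed by more than sampling noise (chi-square per degree of freedom 341 for the fat pad, 78.8 for muscle and 528 for tendon), and all 6 were kept. Every library carries the same batch label, while the codes in the titles differ between tissues, so those codes and the tissue cannot be told apart. The 7 adipocyte markers summed to 72851 and 79962 CPM in the fat pad libraries and to at most 3367 CPM elsewhere. The 8 muscle fibre markers summed to 252707 and 229312 CPM in muscle, and the 7 tenocyte markers to 10550 and 14336 CPM in tendon, each above every library of the other tissues. Tendon library 2 also held 63101 CPM of muscle fibre markers and tendon library 1 held 31243. In bulk tissue, fewer cells of a type and less RNA per cell cannot be told apart.

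More cell division genes were higher than lower in the fat pad against each other tissue, among them E2f1, Tyms, Cdk1 and Ccnb1. Tissues were compared with edgeR's quasi-likelihood test over 15856 genes with Benjamini-Hochberg adjustment, and a member was called at an adjusted p under 0.05. Between fat pad and muscle 16 of the 40 members were higher in the fat pad, against 29.8% of all genes tested, and 5 were lower, against 29.6%. Between fat pad and tendon 16 were higher, against 27.2% of all genes, and 1 was lower, against 31.4%. Tendon and muscle differed least, with 2 members higher in tendon, against 13.3% of all genes, and 4 lower, against 12.7%. The median log2 fold change over the 40 members was 0.89 for fat pad against muscle, 1.29 for fat pad against tendon and -0.28 for tendon against muscle, where the medians over all genes were 0.14, -0.01 and 0.10. The deposited TPM values, tested with limma on log2(TPM + 1), gave 10 members higher and 6 lower in fat pad than muscle, where 20.4% of all genes were higher and 38.8% lower. Against tendon they gave 2 higher and 9 lower, where 10.8% of all genes were higher and 54.4% lower. Between the libraries of a pair, the TPM ratio correlated with the count ratio across genes at 0.98 for fat pad, -0.18 for muscle and -0.20 for tendon. The counts of muscle library 2 and of tendon library 2 ranked genes more like the TPM of muscle library 1 (Spearman 0.892 and 0.848) than like their own TPM (0.872 and 0.819). Which table names these libraries rightly cannot be told, so in muscle and tendon library 1 and library 2 mean the names of the count tables. These contrasts share libraries, so a member's results in them are not independent. With libraries scaled by total counts alone, the all-gene medians moved by 0.51, -0.21 and 0.73, and member calls became 22 higher and 2 lower for fat pad against muscle, 12 higher for fat pad against tendon, and 7 higher and 1 lower for tendon against muscle. The calls over all genes became 6350 higher and 3420 lower in place of 4728 and 4698 for fat pad against muscle, and 5969 higher and 398 lower in place of 2110 and 2017 for tendon against muscle. For fat pad against tendon they became 3671 and 5449.

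**Figure D1:**
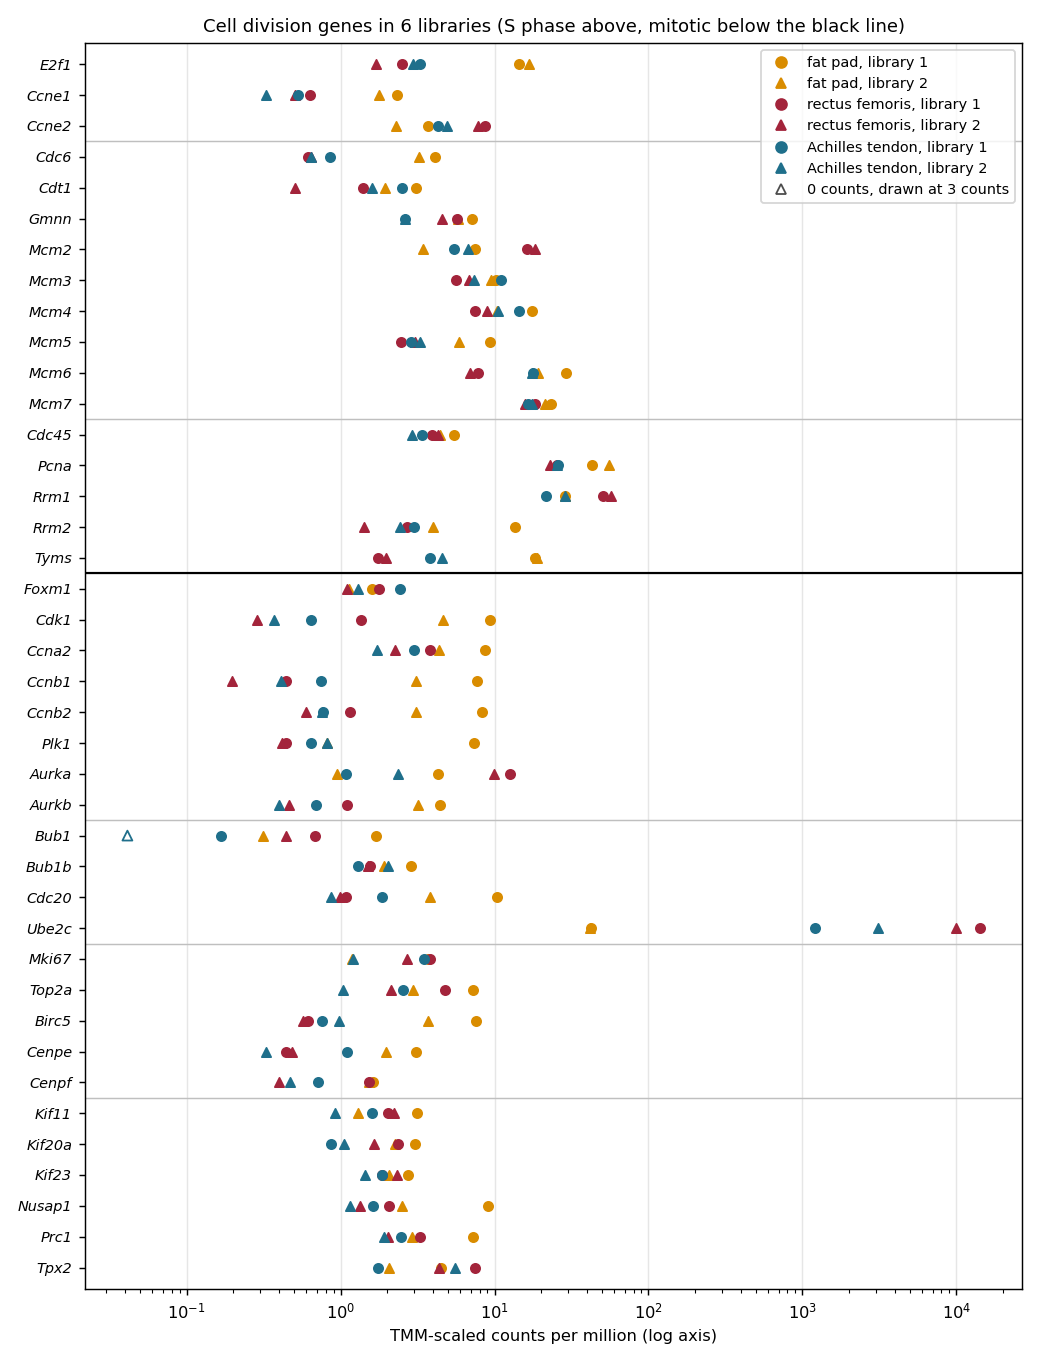
Level of each of the 40 members in the 6 libraries, in TMM-scaled CPM on a log axis, coloured by tissue, with circles for library 1 and triangles for library 2. Most members of both phases lie between 0.1 and 100 CPM with the fat pad to the right, Ube2c reaches 14206 CPM in muscle, and Bub1 in tendon library 2 had 0 counts and is drawn open at 3 counts.

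Of the genes that commit a cell to S phase, E2f1 and Ccne1 were higher in the fat pad and Ccne2 was lower there. E2f1, the activating E2F factor, stood at 14.3 and 16.8 CPM for the fat pad, 2.52 and 1.70 for muscle and 3.28 and 2.97 for tendon. Both fat pad values lay far above the other 4, with a log2 fold change of 2.88 ± 0.33 (SE, edgeR adjusted p = 0.000345) against muscle and 2.31 ± 0.31 (edgeR adjusted p = 0.000837) against tendon. Ccne1, which encodes cyclin E1, stood at 2.33 and 1.79 CPM for the fat pad, 0.637 and 0.506 for muscle and 0.528 and 0.330 for tendon. It too did not overlap between fat pad and the rest, at 1.85 ± 0.65 against muscle (edgeR adjusted p = 0.0439) and 2.26 ± 0.65 against tendon (edgeR adjusted p = 0.0218). Ccne2, the gene of cyclin E2, ran the other way, at 3.72 and 2.29 CPM for the fat pad, 8.67 and 7.82 for muscle and 4.28 and 4.93 for tendon. It was lower in fat pad than muscle by a log2 fold change of -1.46 ± 0.36 (edgeR adjusted p = 0.0111), and its difference from tendon did not pass (-0.62 ± 0.35, edgeR adjusted p = 0.171). Of the Ccne2 exonic bases 17.4% are also exonic in Ints8 on the other strand.

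The 9 licensing members, which load the replicative helicase at origins, split widely. Cdc6, the loader of the helicase, stood at 4.10 and 3.25 CPM for the fat pad, against 0.613 and 0.639 in muscle and 0.850 and 0.646 in tendon. It was higher in the fat pad by 2.55 ± 0.52 on the log2 scale against muscle (edgeR adjusted p = 0.00508) and by 2.29 ± 0.51 against tendon (edgeR adjusted p = 0.00738), with no overlap. Mcm5 stood at 9.28 and 5.85 CPM for the fat pad, 2.45 and 3.06 for muscle and 2.89 and 3.30 for tendon, and was higher in the fat pad in both contrasts (1.46 ± 0.38 with edgeR adjusted p = 0.0145, and 1.29 ± 0.38 with edgeR adjusted p = 0.0223). Mcm6 stood at 29.2 and 19.1 CPM for the fat pad, 7.82 and 6.98 for muscle and 17.6 and 17.4 for tendon. Muscle was thus the low tissue for Mcm6, below the fat pad by 1.71 ± 0.26 (edgeR adjusted p = 0.00132) and below tendon by 1.25 ± 0.26 (edgeR adjusted p = 0.0186). Mcm2, another of the 6 helicase subunits, had the opposite order, at 16.3 and 18.4 CPM in muscle, 7.48 and 3.41 in the fat pad, and 5.44 and 6.73 in tendon. It was lower than in muscle both in the fat pad (-1.67 ± 0.39, edgeR adjusted p = 0.00951) and in tendon (-1.51 ± 0.39, edgeR adjusted p = 0.0337), although the subunits act as 1 hexamer. Mcm3, Mcm4 and Mcm7 passed in no contrast, with log2 fold changes between 0.00 and 0.77. Gmnn, the inhibitor of relicensing, stood at 7.11 and 5.79 CPM for the fat pad and 5.71 and 4.54 in muscle, close but not overlapping, and at 2.63 and 2.61 in tendon. Its difference from muscle did not pass (0.33 ± 0.32, edgeR adjusted p = 0.403). Against tendon the Gmnn difference passed (1.30 ± 0.33, edgeR adjusted p = 0.0129), but it was 0.046 (edgeR adjusted p = 0.912) with a length trend in the fit and -0.37 on log2(TPM + 1). Cdt1, the licensing factor that Gmnn binds, ranged from 0.506 to 3.11 CPM and passed in no contrast.

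Among the fork and nucleotide members, thymidylate synthase showed the clearest tissue difference of all S phase members. Tyms, which makes thymidylate, stood at 18.2 and 19.0 CPM for the fat pad, 1.74 and 1.98 for muscle and 3.81 and 4.56 for tendon. Its 3 pairs did not overlap, and all 3 contrasts passed, at 3.32 ± 0.28 for fat pad against muscle (edgeR adjusted p = 0.000103), 2.15 ± 0.26 for fat pad against tendon (edgeR adjusted p = 0.000498) and 1.17 ± 0.26 for tendon against muscle (edgeR adjusted p = 0.0222). Pcna, the sliding clamp of the replication fork, stood at 43.0 and 55.3 CPM for the fat pad, 25.5 and 23.0 for muscle and 25.9 and 25.5 for tendon. The fat pad was higher by 1.02 ± 0.19 (edgeR adjusted p = 0.00345) and 0.94 ± 0.19 (edgeR adjusted p = 0.00507). Per kilobase of transcript Pcna had the highest mean level of the members other than Ube2c in every tissue, at 32.4 CPM per kb for the fat pad, 16.0 for muscle and 16.9 for tendon.

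The subunits of ribonucleotide reductase, which makes deoxynucleotides, parted. Rrm1, the large subunit, stood at 50.5 and 56.9 CPM in muscle, above 28.7 and 28.6 in the fat pad and 21.6 and 28.9 in tendon. It was lower than in muscle in the fat pad (-0.91 ± 0.20, edgeR adjusted p = 0.00681) and in tendon (-1.09 ± 0.20, edgeR adjusted p = 0.0139). Rrm2, the small subunit that dividing cells make, stood at 13.5 and 3.98 CPM for the fat pad, 2.70 and 1.41 for muscle and 3.00 and 2.43 for tendon. Fat pad library 1 stood alone, and the contrast with muscle passed (2.09 ± 0.64, edgeR adjusted p = 0.0275) while that with tendon did not (1.68 ± 0.63, edgeR adjusted p = 0.0544). Cdc45, part of the active helicase, ranged from 2.91 to 5.43 CPM and passed in no contrast.

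**Figure D2:**
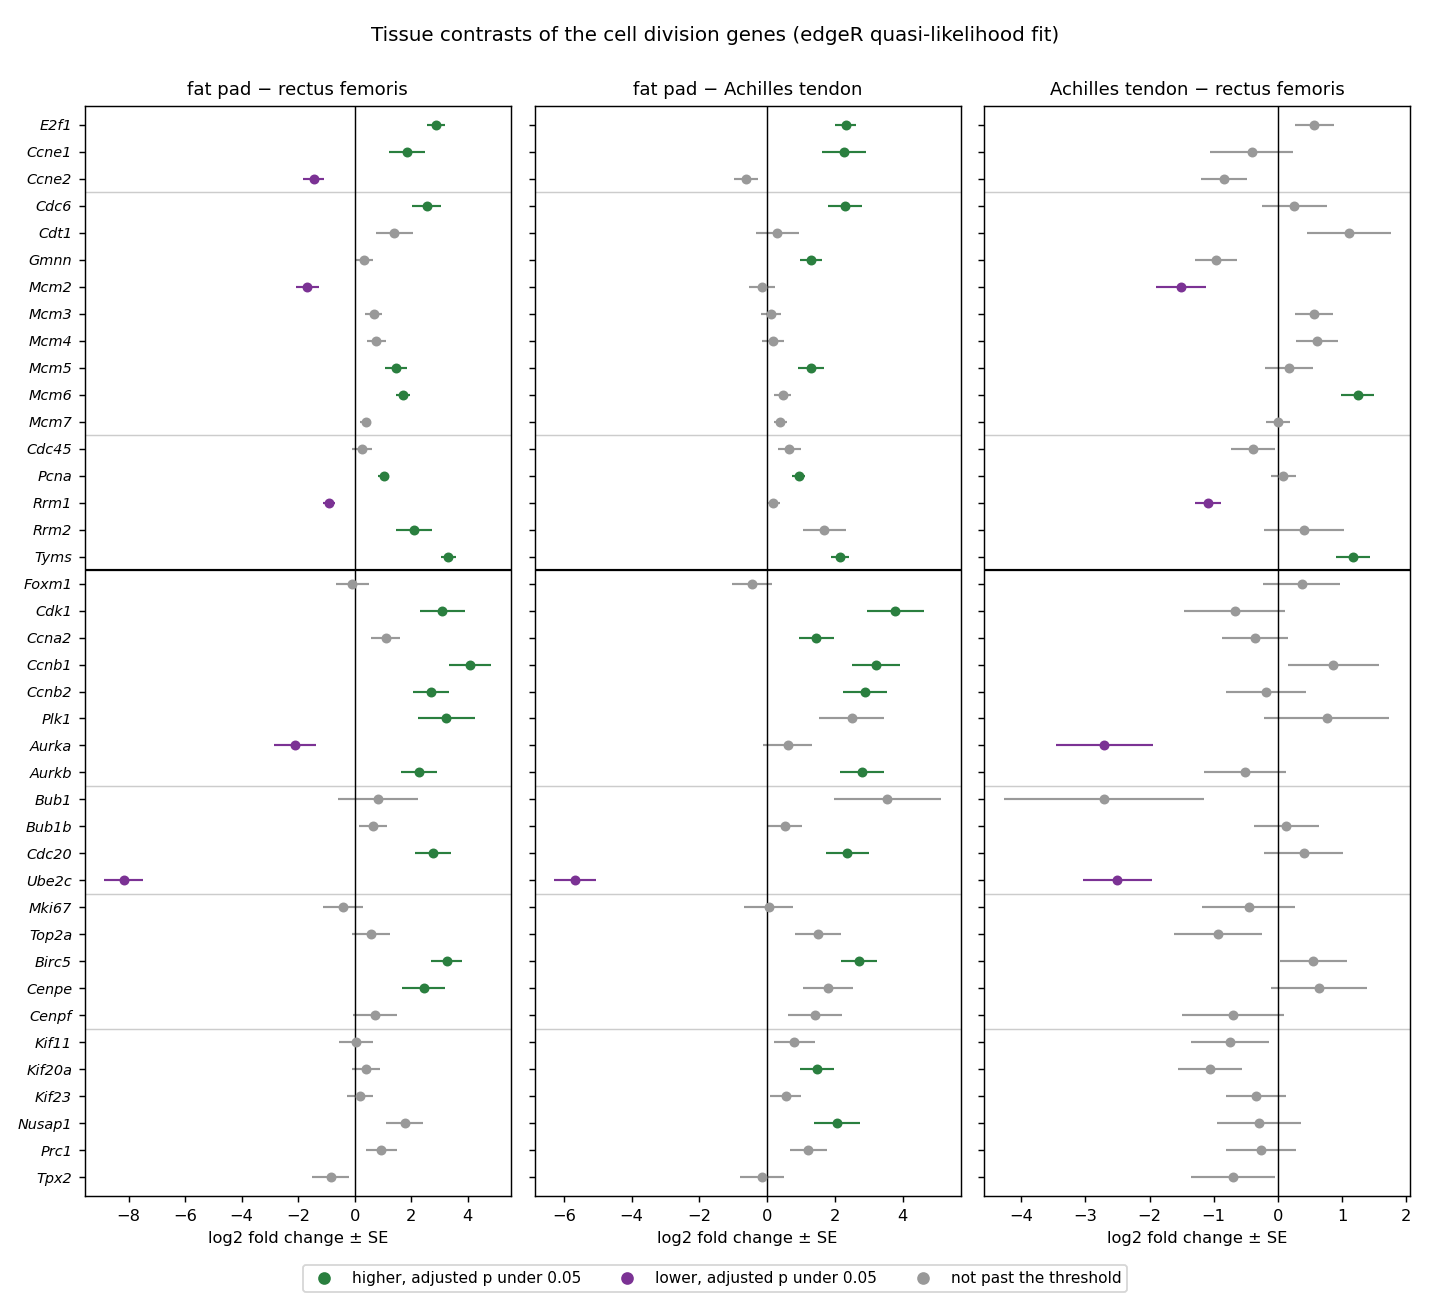
Log2 fold change of each member with its standard error in the 3 tissue contrasts, S phase members above the black line and mitotic members below, with green for calls higher in the first tissue, purple for calls lower and grey for neither. The horizontal axes differ between panels, and green points are most frequent in the 2 fat pad panels, at 16 members each.

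Of the 8 kinases, cyclins and activators that control entry into mitosis, 5 were higher in the fat pad in each fat pad contrast. Over all genes 29.8% were higher than in muscle and 27.2% higher than in tendon. Of the 8, 1 was lower than in muscle and 0 lower than in tendon, against 29.6% and 31.4% of all genes. Ccnb1, which encodes cyclin B1, stood at 7.73 and 3.09 CPM for the fat pad, 0.441 and 0.198 for muscle and 0.747 and 0.412 for tendon. It showed the highest positive log2 fold change of the members against muscle, 4.08 ± 0.76 (edgeR adjusted p = 0.00331), and 3.22 ± 0.71 against tendon (edgeR adjusted p = 0.00730), with no overlap. Cdk1, the mitotic kinase, stood at 9.41 and 4.63 CPM for the fat pad, 1.35 and 0.286 for muscle and 0.644 and 0.371 for tendon. Its differences were 3.11 ± 0.81 (edgeR adjusted p = 0.0145) and 3.78 ± 0.83 (edgeR adjusted p = 0.00706), again with both fat pad libraries above the other 4. Ccnb2, the gene of cyclin B2, and Aurkb, a kinase of chromosome alignment and cell cleavage, were also higher in the fat pad in both contrasts. For Ccnb2 the log2 fold changes were 2.70 and 2.89, and for Aurkb 2.28 and 2.79. Ccna2, the gene of cyclin A2, passed against tendon (1.45 ± 0.52, edgeR adjusted p = 0.0477) and not against muscle (1.09 ± 0.52, edgeR adjusted p = 0.108).

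Plk1 and Aurka, kinases of the mitotic centrosome and spindle, rested on 1 fat pad library or ran the other way. Plk1 stood at 7.38 and 0.818 CPM for fat pad libraries 1 and 2, with 0.441 and 0.418 in muscle and 0.644 and 0.811 in tendon. The second fat pad library was close to tendon, and only the contrast with muscle passed (3.25 ± 1.02, edgeR adjusted p = 0.0298). Without fat pad library 1 that contrast was 0.96 (edgeR adjusted p = 0.363). Aurka stood at 12.7 and 9.95 CPM in muscle, 4.31 and 0.943 in the fat pad, and 1.08 and 2.38 in tendon. Muscle was above all other libraries, with log2 fold changes of -2.11 ± 0.73 in the fat pad (edgeR adjusted p = 0.0426) and -2.71 ± 0.75 in tendon (edgeR adjusted p = 0.0407). Foxm1, the factor that switches on mitotic genes, stood between 1.10 and 2.43 CPM in all 6 libraries and passed in no contrast.

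Of the checkpoint and proteolysis members, Cdc20, the activator of the anaphase-promoting complex, stood at 10.3 and 3.82 CPM for the fat pad, 1.08 and 0.991 for muscle and 1.87 and 0.866 for tendon. Both fat pad libraries lay above the rest (2.77 ± 0.65, edgeR adjusted p = 0.00920, and 2.37 ± 0.63, edgeR adjusted p = 0.0157). Bub1 and Bub1b, kinases of the spindle checkpoint, passed in no contrast. Bub1 was the scarcest member in tendon, with 13 counts in library 1 and 0 in library 2.

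Ube2c, the ubiquitin-conjugating enzyme of the anaphase-promoting complex, stood apart from every other member. It had 579766 and 454963 counts in muscle, 93381 and 223751 in tendon, and 3804 and 4690 in the fat pad. These are 14206 and 10018 CPM in muscle, where the next member, Rrm1, had 50.5 and 56.9. Ube2c was lower in fat pad than muscle (-8.18 ± 0.69, edgeR adjusted p = 0.000112) and tendon (-5.67 ± 0.62, edgeR adjusted p = 0.000336), and lower in tendon than in muscle (-2.50 ± 0.54, edgeR adjusted p = 0.0204). The gene shares 592 of its 2600 exonic bases (22.8%, GENCODE M21 on GRCm38) with Tnnc2, the troponin C of fast muscle, which lies on the opposite strand. Tnnc2 had 98382 and 79222 counts in muscle, 14151 and 34429 in tendon, and 462 and 771 in the fat pad. The Ube2c count was 5.89 and 5.74 times the Tnnc2 count in muscle, 6.60 and 6.50 times in tendon, and 8.23 and 6.08 times in the fat pad. Because the strand setting of the counting is not given in the sources used here, reads of the 2 genes cannot be told apart, and sums over mitotic members are given without Ube2c below. The overlaps of other members with a neighbouring gene reached 29.3% of exonic bases in Kif20a (with Cdc23). Without the 10 members that overlap, 15 of 30 were higher and 3 lower in fat pad than muscle. That choice was made after the data were seen, and over all genes 29.8% were higher and 29.6% lower.

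Of the 5 chromosome members, Birc5 and Cenpe differed and the common proliferation marks Mki67 and Top2a did not pass. Birc5, which encodes survivin of the chromosomal passenger complex, stood at 7.61 and 3.71 CPM for the fat pad, 0.613 and 0.573 for muscle and 0.760 and 0.976 for tendon. Its fat pad values lay above the other 4 (3.25 ± 0.55, edgeR adjusted p = 0.00222, and 2.70 ± 0.53, edgeR adjusted p = 0.00440). Cenpe, a kinetochore motor, stood at 3.08 and 1.97 CPM for the fat pad, 0.441 and 0.484 for muscle and 1.11 and 0.330 for tendon, and passed against muscle only (2.44 ± 0.77, edgeR adjusted p = 0.0302). Mki67, the coat protein of mitotic chromosomes that is used to mark dividing cells, stood at 3.69 and 1.18 CPM for the fat pad, 3.80 and 2.69 for muscle and 3.50 and 1.21 for tendon. The 3 pairs overlap, and the contrast of fat pad with muscle was -0.41 ± 0.72 (edgeR adjusted p = 0.643). Top2a, the topoisomerase that untangles sister chromatids, ranged from 1.03 to 7.23 CPM and Cenpf, a kinetochore protein, from 0.396 to 1.63, and neither passed in any contrast.

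Of the 6 spindle members none passed between fat pad and muscle, where 29.8% of all genes were higher and 29.6% lower. Against tendon 2 were higher in the fat pad, close to the 27.2% of all genes, and 0 were lower, against 31.4%. Nusap1, which bundles spindle microtubules, stood at 9.08 and 2.52 CPM for the fat pad, 2.06 and 1.34 for muscle and 1.62 and 1.15 for tendon. The contrast with tendon passed (2.06 ± 0.67, edgeR adjusted p = 0.0338) and that with muscle did not (1.77 ± 0.67, edgeR adjusted p = 0.0553). The fat pad libraries lay above both, but without fat pad library 1 the log2 fold change of Nusap1 against tendon was 0.92. Kif20a, a motor of the central spindle, passed against tendon (1.46 ± 0.50, edgeR adjusted p = 0.0396), and that call was lost whichever of the 6 libraries was left out. Kif11 and Kif23, also spindle motors, and Prc1, the bundler of the central spindle, passed nowhere. Tpx2, the activator of Aurka on the spindle, stood at 7.45 and 4.36 CPM in muscle, 4.46 and 2.07 in the fat pad, and 1.74 and 5.53 in tendon, and the pairs overlap.

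Which library is left out decided many of these calls, and each such fit left a tissue with a single library. How many calls over all genes were kept in every such fit was not counted, so the kept calls describe the members only. For fat pad against muscle 7 of the 16 higher calls were kept whichever library was left out, namely E2f1, Cdc6, Mcm6, Pcna, Tyms, Ccnb1 and Birc5, and Ube2c was the only lower call so kept. Without fat pad library 1 there were 8 of the 40 members higher, a smaller share than the 24.7% of all genes in the same fit. Without muscle library 2 there were 7, or 17.5%, against 19.6% of all genes, and without muscle library 1 there were 10, or 25.0%, against 19.9%. The share of members higher than in muscle thus exceeded that of all genes in some of these fits and not in others. Members lower numbered 5, 2 and 3 in those fits, against 26.4%, 22.6% and 23.7% of all genes. For fat pad against tendon 10 of the 16 were kept, namely E2f1, Cdc6, Gmnn, Pcna, Tyms, Cdk1, Ccnb1, Ccnb2, Aurkb and Birc5, with Ube2c as the lower call. The number higher was 10, or 25.0%, both without fat pad library 1 and without tendon library 2, against 23.9% and 23.1% of all genes. For tendon against muscle none of the 6 calls was kept, and with muscle library 1 or 2 left out the calls over all genes fell from 2110 higher and 2017 lower to 37 and 6, or 14 and 5.

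Set against each other, S phase and mitotic members gave close medians against muscle and unequal medians against tendon. Against muscle the median log2 fold change of the fat pad was 1.02 over the 17 S phase members and 0.84 over the 23 mitotic members. Those higher were 8 of the 17 S phase and 8 of the 23 mitotic members, against 29.8% of all genes. The difference of those medians, mitotic minus S phase, was -0.18 and changed sign with the libraries, to 0.36 without fat pad library 2 and 0.23 without muscle library 1, and was -0.62 without fat pad library 1. Against tendon the medians were 0.65 for S phase, with 7 higher, and 1.46 for mitosis, with 9 higher, against 27.2% of all genes. That difference of 0.81 fell to 0.36 without fat pad library 1 and rose to 1.12 without fat pad library 2 and 1.15 without tendon library 1. Between tendon and muscle the mitotic median lay below the S phase median (-0.36 against 0.17). The difference of -0.52 was -0.05 without muscle library 1 and -0.26 without tendon library 2. Without Ube2c the mitotic medians were 0.89 for fat pad against muscle, 1.48 for fat pad against tendon and -0.35 for tendon against muscle.

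Summed over members, the mitotic set varied more between the libraries of a tissue than the S phase set. The S phase members summed to 241 and 213 CPM for the fat pad, 162 and 163 for muscle and 139.8 and 140.2 for tendon. The libraries of a tissue thus differed by at most 1.13-fold in this sum. The mitotic members without Ube2c summed to 120 and 51.8 CPM for the fat pad, 56.2 and 38.4 for muscle and 32.2 and 27.1 for tendon. As a share of the S phase sum that was 49.7% and 24.3% for the fat pad, 34.8% and 23.5% for muscle and 23.0% and 19.3% for tendon. Fat pad library 1 was the high library, and fat pad library 2 lay close to muscle library 2 in this share.

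Between the fat pad libraries the mitotic members were lower in library 2 almost throughout. With 1 library on each side there is no test, and a difference was called at 2-fold, with 95% intervals for counting error. In the fat pad 16 of the 40 members were at least 2-fold lower in library 2, against 9.28% of all genes with at least 20 counts, and 0 were 2-fold higher, against 6.54%. Of these 14 were among the 23 mitotic members and 2, Mcm2 and Rrm2, among the 17 S phase members. The median log2 ratio of library 2 to library 1 was -1.10 over the mitotic members, -0.34 over the S phase members and -0.01 over all genes. Plk1 showed the widest gap, 667 counts in library 1 and 92 in library 2, or 9.02-fold after scaling (95% interval 7.24 to 11.3). Bub1 followed at 5.47-fold (3.77 to 8.14), Aurka at 4.58-fold (3.68 to 5.73), Nusap1 at 3.61-fold (3.15 to 4.15), Rrm2 at 3.40-fold (3.05 to 3.80) and Mki67 at 3.12-fold (2.55 to 3.85). The main mitotic cyclins and their kinase moved by less, with Ccnb2 at 2.65-fold, Ccnb1 at 2.50-fold, Cdk1 at 2.03-fold and Ccna2 at 1.98-fold. Of the 17 S phase members 12 had intervals wholly on the side of library 1, as did 21 of the 23 mitotic members. The same count over all genes was not made. The fat pad pair spread far beyond counting error over all genes (chi-square per degree of freedom 341), so these counts do not set the members apart. E2f1 (0.851, interval 0.793 to 0.914) and Pcna (0.778, interval 0.748 to 0.810) were lower in library 1. The S phase members Mcm3, Rrm1 and Tyms had intervals that span 1.

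**Figure D3:**
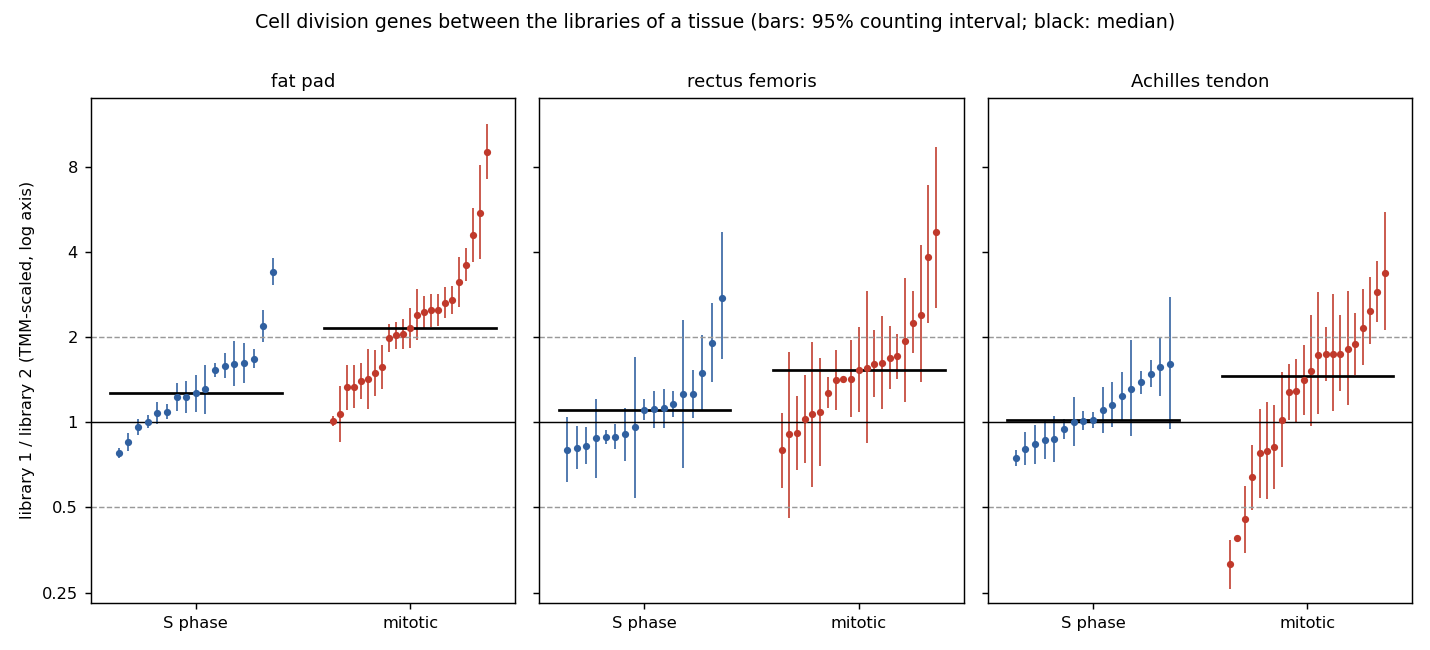
Ratio of library 1 to library 2 for each member in each tissue on a log axis, S phase members in blue and mitotic members in red, with 95% counting intervals, dashed lines at 2-fold and black bars at the median. In the fat pad the mitotic points reach 9.02 for Plk1 while most S phase points lie between 0.778 and 1.68.

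In muscle and tendon the mitotic median also lay below the S phase median, at -0.59 against -0.15 in muscle and -0.53 against -0.02 in tendon. On the deposited TPM the tendon direction turned, with 1.04 for mitotic and 0.55 for S phase members, and muscle gave -0.25 and -0.17. In muscle 5 of the 38 members with enough counts were at least 2-fold lower in library 2, against 2.45% of all genes, and 0 were 2-fold higher, against 3.01%. These were Cdk1 (4.71-fold, 2.54 to 9.39), Cenpf (3.83-fold, 2.24 to 6.88), Cdt1, Aurkb and Top2a. In tendon 4 of 39 members were 2-fold lower in library 2, against 9.51% of all genes, namely Cenpe (3.36-fold, 2.12 to 5.52), Mki67 (2.90-fold, 2.27 to 3.73), Top2a and Cdc20. In the other direction 3 members were 2-fold higher in tendon library 2, against 4.83% of all genes, and these were Tpx2, Ube2c and Aurka. The muscle fibre marker sum was 2.02 times as high in tendon library 2 as in library 1. Of the other members called lower in fat pad than muscle, the ratio of library 2 to library 1 in tendon was 1.34 for Rrm1, 1.24 for Mcm2 and 1.15 for Ccne2. Other marker sums went the opposite way, higher in tendon library 1, with adipocyte markers at 3367 and 727 CPM (4.63 times), granulocyte precursor markers at 1.88 and 0.234 CPM (8.05 times) and erythroid markers at 293 and 102 CPM (2.88 times). In muscle the adipocyte sum was 445 and 1036 CPM. The part of these cells and of muscle RNA in the tendon and muscle ratios was not tested.

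Markers of several kinds of blood-forming and blood cell were, like the mitotic members, higher in fat pad library 1, and those of T cells only slightly. With 1 pair of libraries, sets that differ in the same direction cannot be shown to move together. Granulocyte precursor markers, 5 of 6 listed in all tables, summed to 82.7 and 19.3 CPM for fat pad libraries 1 and 2, or 4.29 times as high in the first. Neutrophil markers stood 7.66 times as high in library 1 (1865 and 243 CPM over 9 genes), erythroid markers 3.16 times (48743 and 15405 CPM over 10 genes), and B cell and precursor markers 3.88 times (84.6 and 21.8 CPM over 8 genes). T cell markers summed to 19.5 and 15.9 CPM (1.23 times), with 2 of 7 genes at least 2-fold lower in library 2 and 1 at least 2-fold higher. Mpo, the peroxidase of granulocyte precursors, had 46.8 and 8.36 CPM for the fat pad and had at most 4 counts in any other library. Endothelial markers (1.43 times) and tenocyte markers (1.34 times) also summed higher in library 1. Macrophage markers went the other way (0.646, with 1463 and 2264 CPM), as did epidermis (0.584) and muscle stem cell markers (0.720). Adipocyte (0.911) and muscle fibre markers (1.05) were close to level. In muscle the granulocyte precursor, neutrophil, erythroid and B cell sums were at most 0.686, 8.13, 423 and 1.23 CPM, and in tendon at most 1.88, 5.60, 293 and 1.61 CPM. In muscle Cebpe, Cxcr2 and Igll1 had 0 counts in both libraries, and in tendon Mpo did. The part of blood and marrow cells in the fat pad levels of the division genes was not tested.

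**Figure D4:**
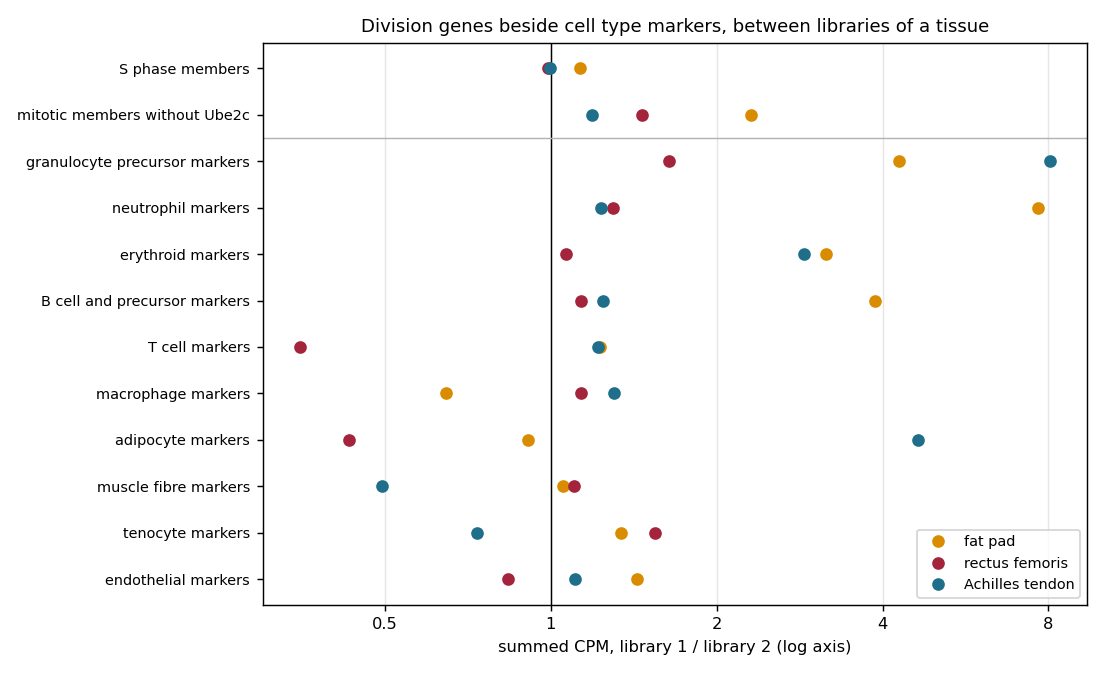
Summed CPM in library 1 over library 2 for the S phase members, the mitotic members without Ube2c and 10 lists of cell type markers, on a log axis, coloured by tissue. In the fat pad the mitotic sum (2.31) lies on the side of the neutrophil (7.66), granulocyte precursor (4.29), B cell (3.88) and erythroid (3.16) sums. Endothelial (1.43), tenocyte (1.34), T cell (1.23) and muscle fibre (1.05) sums also lie above 1 there, with macrophage (0.646) and adipocyte (0.911) sums below. The epidermis (0.584) and muscle stem cell (0.720) sums, also below 1 in the fat pad, are not drawn.

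Transcript length moved with the fat pad contrasts over all genes. Against muscle the median log2 fold change was 1.05 over 3427 genes whose longest transcript is under 2 kb, 0.37 from 2 to 4 kb, -0.44 from 4 to 6 kb and -0.88 above 6 kb, and against tendon it was 1.15, 0.27, -0.72 and -1.30. Against muscle the members lay above the class median in every class, with medians of 1.85, 0.89, 0.31 and 0.72. With a length trend of each library put into the fit, an alternative added after the data were seen, 10 members (25.0%) were higher and 4 lower in fat pad than muscle, where 25.9% of all genes were higher and 31.3% lower. Against tendon 16 members (40.0%) were higher and 1 lower, where 23.8% of all genes were higher and 27.4% lower. Against muscle that fit dropped Ccne1, Pcna, Rrm2, Ccnb2, Plk1 and Aurkb from the higher calls and Rrm1 from the lower. Against tendon it dropped Ccne1, Gmnn, Pcna, Ccna2 and Cdc20 and added Mcm6, Rrm1, Top2a, Cenpe and Cenpf. Pcna, whose transcript is short, moved from 1.02 to -0.04 against muscle and from 0.94 to -0.10 against tendon. E2f1, Cdc6, Mcm6, Tyms, Ccnb1 and Birc5 stayed higher than in muscle in that fit and whichever library was left out. Against tendon E2f1, Cdc6, Tyms, Cdk1, Ccnb1, Ccnb2, Aurkb and Birc5 did so. Mitotic minus S phase medians became 0.18 against muscle and 1.34 against tendon.

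**Figure D5:**
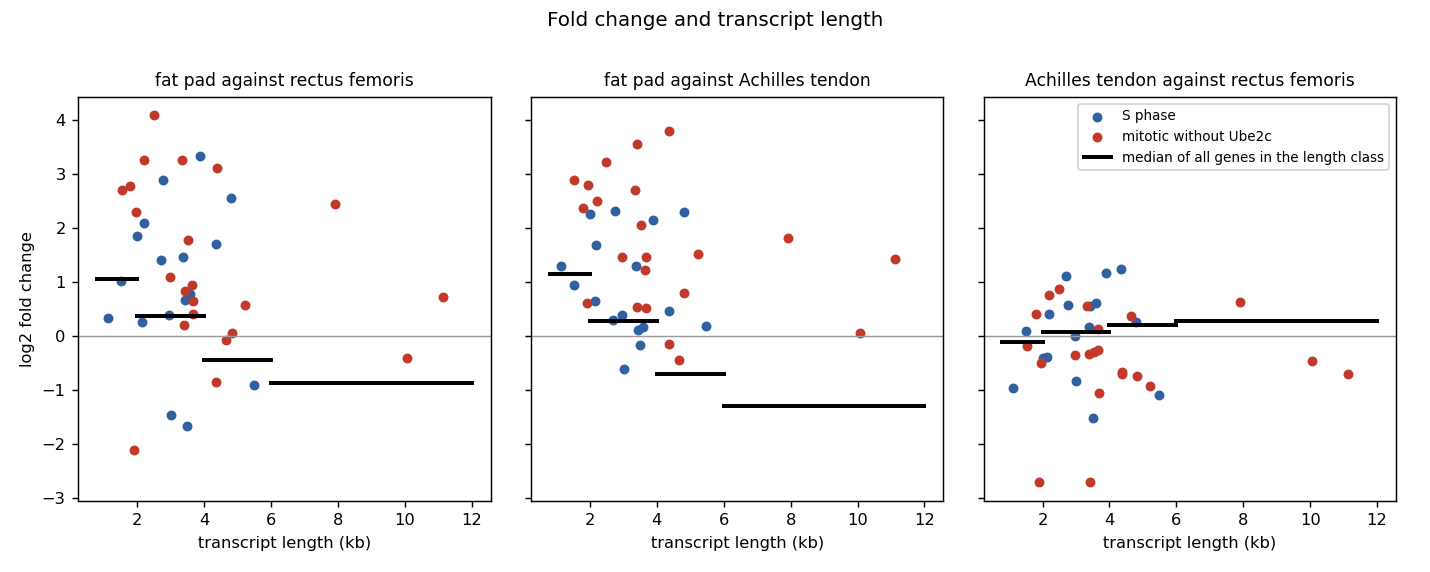
Log2 fold change of the members (without Ube2c) against the length of their longest transcript in the 3 contrasts, with black bars at the median of all genes in each length class. The bars descend from 1.05 to -0.88 for fat pad against muscle and from 1.15 to -1.30 for fat pad against tendon.

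Of 33 other replication genes 15 were higher and 1 lower in fat pad than muscle, where 29.8% of all genes were higher and 29.6% lower. Against tendon 14 were higher and 0 lower, where 27.2% of all genes were higher and 31.4% lower. The medians of this list were 0.87 and 0.96. Gins4, a subunit of the GINS helicase complex, stood at 56.2 and 59.2 CPM for the fat pad, 18.8 and 15.0 for muscle and 13.0 and 12.5 for tendon, with no overlap. Its log2 fold change was 2.18 ± 0.19 against tendon (edgeR adjusted p = 0.000162). Dtl, which directs Cdt1 to destruction, changed most of this list against muscle (3.05 ± 0.75, edgeR adjusted p = 0.0112). The lower call against muscle was Pole, a subunit of DNA polymerase epsilon (-1.33 ± 0.41, edgeR adjusted p = 0.0284), named here after its value was seen. E2f2, an activating E2F factor, was highest in muscle, at 11.6 and 8.68 CPM there, 7.38 and 2.77 in the fat pad, and 1.95 and 3.26 in tendon. It was lower in tendon than in muscle (-1.96 ± 0.54, edgeR adjusted p = 0.0387). Of 34 other mitotic genes, to be read against the same shares of all genes, 14 were higher and 1 lower in fat pad than muscle. Against tendon 15 were higher and 1 lower, and the medians were 1.29 and 1.98. Cdc25c, the phosphatase that activates Cdk1, stood at 2.57 and 1.48 CPM for the fat pad and had at most 4 counts in any other library. Ncapd2, a condensin subunit, was the lower call in both, at 4.45 and 2.60 CPM in the fat pad against 14.8 and 16.5 in muscle and 15.0 and 12.2 in tendon. Between the fat pad libraries 11 of the 34 other mitotic genes and 6 of the 33 other replication genes were at least 2-fold lower in library 2, and 1 and 2 were at least 2-fold higher, against 9.28% and 6.54% of all genes.

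Genes that hold cells in or out of the cycle are read against the shares of all genes given above, 29.8% higher and 29.6% lower against muscle and 27.2% and 31.4% against tendon. Of 8 G1 cyclins and kinases 5 were higher and 1 lower in fat pad than muscle, and 4 higher and 2 lower than in tendon. Ccnd2, Ccnd3, Cdk4 and Cdk6 were the higher calls in both contrasts, joined by Cdk2 against muscle, and Mycn was lower in both, joined by Ccnd1 against tendon. Ccnd2, the gene of cyclin D2, stood at 224 and 259 CPM for the fat pad, 30.2 and 36.2 for muscle and 76.6 and 62.7 for tendon. Its 3 pairs did not overlap (2.86 ± 0.22 against muscle, edgeR adjusted p = 8.5e-05). Cdk6, a partner of the D cyclins, was higher by 3.21 ± 0.41 against muscle (edgeR adjusted p = 0.000621), and Mycn, a growth-promoting MYC factor, was lower by -3.10 ± 0.88 (edgeR adjusted p = 0.0204). Of the 6 CDK inhibitors tested 4 were higher (Cdkn1a, Cdkn2b, Cdkn2c and Cdkn2d) and 1 lower (Cdkn1b) in fat pad than muscle, and 3 higher (Cdkn2b, Cdkn2c and Cdkn2d) and 1 lower (Cdkn1b) than in tendon. Cdkn2c, the p18 inhibitor of CDK4 and CDK6, stood at 163 and 211 CPM for the fat pad against 10.1 and 14.0 in muscle, while Cdkn1b, the p27 inhibitor, stood at 7.39 and 5.91 CPM against 58.4 and 60.8 in muscle and 76.5 and 59.9 in tendon. The 2 inhibitors thus differed in opposite directions, each without overlap. The pocket protein and DREAM list takes its name from complexes that repress the cycle in resting cells, but not all its genes are repressors. Of its 12 genes 4 were higher and 4 lower in each fat pad contrast, close to the share of all genes. Rbl1, E2f5, Lin37 and Lin52 were the higher calls in both, and the lower calls were Rbl2 and E2f3 in both, with Tfdp1 and Tfdp2 against muscle and Rb1 and Lin54 against tendon. Cdk2, Cdkn2d, Rbl1, Lin37, Lin52, Rb1 and Lin54 are listed here to complete these counts, after their values were seen. Rbl2, the pocket protein p130, stood at 20.8 and 11.2 CPM for the fat pad, 93.3 and 101 for muscle and 61.5 and 61.3 for tendon, and E2f3 at 2.42 and 0.738 CPM, 28.9 and 26.8, and 11.8 and 13.4. Both were lower in fat pad than muscle, Rbl2 by -2.60 ± 0.30 and E2f3 by -4.15 ± 0.54 on the log2 scale.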

How the data were processed

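RNA was measured by RNA-seq in 2 libraries of each tissue. The deposited count tables hold whole-number read counts per gene, and the deposited TPM tables hold the authors' values per gene with symbols, which were joined to the counts by Ensembl identifier. Per the submitters' processing notes Bowtie2, RSEM 1.3.1, DESeq2 1.4.5 and GRCm39 were used, with no role named for any of them and no strand setting. Counts were fitted with edgeR 4.0.16 (R 4.3.3, TMM scaling, filterByExpr, quasi-likelihood test, Benjamini-Hochberg adjustment at 0.05) over all 6 libraries without a replicate block. Standard errors are the log2 fold change over the root of the F statistic. Ratios of single genes between libraries of a tissue needed at least 20 counts in the higher library. Medians of log2 count ratios and 2-fold calls used a prior count of 2. The printed fold of a single gene used no prior count and was given with exact binomial 95% intervals. Transcript lengths and overlaps came from GENCODE M21. Alternatives used limma 3.58.1 and DESeq2 1.42.0, and edgeR was tested on simulated data. The members and lists were chosen with earlier results of these data known. All members are named. Of the other pathway lists, the rule named the 3 genes with the largest called change per contrast and the 3 with the highest mean level, and of the marker lists the 3 with the highest mean level and those at 0 throughout a tissue. A subset is printed.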

Additional observations from a re-analysis of the deposited data

How the results depend on the processing

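With 2 libraries per tissue and low levels of many mitotic genes, the calls depend on single libraries. Against muscle the members higher in fat pad numbered 16, and 10 on TPM + 1, 10 with the length trend and 7 to 18 on leaving out a library. Members lower numbered 5, and 2 with total counts scaling, 3 without overlapping members and 2 to 5 on leaving out a library. Members higher than in tendon numbered 16, and 2 on TPM + 0.1, 2 on TPM + 1 and 10 to 19 on leaving out a library, while 1 lower became 8, 9 and, without overlapping members, 0. Tendon against muscle gave 2 higher, with 7 on TPM + 0.1, 7 on TPM + 1, 7 with total counts scaling and 0 to 2 on leaving out a library, and 4 lower, with 2 and 2 on TPM, 1 with total counts scaling and 0 to 4 on leaving out a library. DESeq2's Wald test gave 19 higher and 5 lower, 24 and 1, and 2 and 6. Shares of all genes in that test were 32.6% higher and 29.7% lower, 31.7% and 31.2%, and 17.4% and 19.0%. Fat pad against tendon gave 10.4% and 10.8% of all genes higher on TPM + 0.1 and TPM + 1, and 54.0% and 54.4% lower. For tendon against muscle these shares were 27.0% and 29.3% higher, and 3.10% and 3.62% lower. With total counts scaling that contrast had 37.6% of all genes higher and 2.51% lower.

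Differences of library 2 from library 1 correlated across genes at -0.03 between fat pad and muscle, 0.01 between fat pad and tendon and -0.30 between muscle and tendon. Because the library names in muscle and tendon are uncertain, these values cannot decide whether the replicate numbers pair the libraries. With a replicate block the counts were 15 higher and 5 lower, 17 and 1, and 2 and 2. Shares of all genes in that fit were 26.4% higher and 28.2% lower, 25.1% and 29.5%, and 9.42% and 7.98%.

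The mitotic minus S phase median of fat pad against muscle (-0.18) was -0.45 at 20 counts or more, 0.18 with the length trend, -0.65 without overlapping members and -0.62 to 0.36 on leaving out a library. Against tendon (0.81) it was 0.56, 1.34, 0.54 and 0.36 to 1.15, and 0.27 on TPM + 1. For tendon against muscle (-0.52) it was 0.19 on TPM + 1, -0.82 without overlapping members and -0.70 to -0.047 on leaving out a library. The median log2 ratio of library 2 to library 1 over S phase members was -0.38 with total counts and -0.21 on TPM in the fat pad, -0.054 with total counts in muscle, and -0.19 with total counts and 0.55 on TPM in tendon. Over mitotic members on TPM it was -0.61 for fat pad, -0.25 for muscle and 1.04 for tendon, and -0.69 in tendon with total counts.

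Single members reversed against tendon on TPM + 0.1 and TPM + 1: Kif20a (-0.82 and -0.45), Mcm5 (-0.28 and -0.24), Gmnn (-0.41 and -0.37), Ccna2 (-0.36 and -0.32) and Pcna (-0.0147 and -0.0143). With the length trend Pcna reversed against muscle (-0.042) and tendon (-0.10). The cause of these changes was not tested.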
